A study of Mus musculus with 8 samples.

Results

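The genes described here encode neuroendocrine peptides and the proteins of the granules that store them: the peptide precursor Calca, the granule protein Resp18, the granins Chga, Chgb, Scg2 and Scg3, and the processing proteins Scg5, Pcsk1, Pcsk2 and Cpe. These 10 genes were found by symbol among the 22056 features counted, and all 10 were among the 13931 genes tested. They were followed in tumour cells, defined as cells in which eGFP and Mycl together made up at least 0.2% of the unique molecular identifiers (UMIs), the tags that count single mRNA molecules. This rule gave 34719 tumour cells out of 38460 deposited cells. Another 430 kept cells lay just below the rule, at 0.1 to 0.2%, and 708 tumour cells lay just above it, at 0.2 to 0.3%.

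The cells were N2N1G, a mouse small cell lung cancer line, grown as allografts in 3 sites and profiled by droplet-based 3′ single-cell RNA sequencing. The 2 brain allografts and the 3 subcutaneous allografts of the flank were started by direct injection, and the 3 liver allografts through the tail vein. All allografts came from this single line, each was started with the same number of cells and grew for 3 weeks, and healthy cells were isolated by sorting ahead of the droplet step; the strain, age and genotype of the hosts are not given in the sources used here. In every comparison with liver the site and the route of the cells cannot be told apart. The labels call the libraries separate allografts without naming animals, so p-values measure the spread between these samples.

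Neuroendocrine cells make peptide hormones as larger precursors, sort them into dense-core granules and cut them there into active peptides. Granins help to form the granules and are themselves cut into peptides, the prohormone convertases Pcsk1 and Pcsk2 cleave at paired basic residues, and carboxypeptidase E (Cpe) trims the ends that remain. Small cell lung cancer is a neuroendocrine carcinoma, in which chromogranin A (the product of Chga) and calcitonin-related peptides are long-known markers.

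The libraries held 2418 and 4060 tumour cells from brain, 4114, 4189 and 4720 from liver, and 4150, 6276 and 4792 from subcutis, with 21689091 to 62047017 tumour-cell UMIs per library. An eGFP UMI was present in 99.36 to 99.83% of the tumour cells of a library. The tumour markers eGFP, Mycl, Insm1, Ncam1 and Syp were each above 5 CPM (UMIs on the counts-per-million scale) in all 8 libraries. The tumour rule used eGFP and Mycl, so the values of these genes follow in large part from the rule. Of 37556 distinct cell barcodes, 882 occurred in 2 or more libraries, and no such pair of cells had identical counts (0 pairs). The tumour cells of the brain libraries also held more UMIs of host cell markers. The summed macrophage level was 541 and 82.0 CPM there, against 2.24 to 45.9 CPM in the other 6 libraries. In all 8 libraries 10 of 10 macrophage markers had a UMI. The 6 oligodendrocyte markers summed to 258 and 193 CPM in brain against 60.4 to 74.0 CPM elsewhere, where Mog was at 0 in all 6 libraries. The 6 astrocyte markers summed to 42.2 and 26.9 CPM in brain and to 1.04 to 3.29 CPM elsewhere, and the 8 neuron markers to 47.4 and 37.3 CPM in brain, 24.6 to 28.4 CPM in liver and 25.8 to 42.5 CPM in subcutis.

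Promoter sequences are shown for the 3 genes that rose together in brain (Calca, Resp18 and Pcsk1), and for 2 granin genes, Chgb and Scg2, that hold the same 8-base motif as Pcsk1 and were not called between sites. The sequences are from RefSeq, assembly GRCm38.p6, and run 5′ to 3′ on the strand of the gene, from 250 bases before the start of the transcript to 50 bases after it. Capitals mark the cyclic AMP response element TGACGTCA, its shorter core TGACG on either strand, and the E-box CAGCTG; the full element contains the core on both strands. The Calca promoter lies at chr7:114636308-114636607 (minus strand), that of Resp18 at chr1:75278366-75278665 (minus strand), that of Pcsk1 at chr13:75089607-75089906 (plus strand), that of Chgb at chr2:132781392-132781691 (plus strand) and that of Scg2 at chr1:79439977-79440276 (minus strand).
Calca: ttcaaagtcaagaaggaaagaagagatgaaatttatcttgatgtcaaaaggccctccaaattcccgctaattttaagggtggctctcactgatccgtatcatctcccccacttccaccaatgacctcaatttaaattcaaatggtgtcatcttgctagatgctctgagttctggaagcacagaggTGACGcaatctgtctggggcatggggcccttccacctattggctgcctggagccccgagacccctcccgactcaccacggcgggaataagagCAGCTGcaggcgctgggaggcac
Resp18: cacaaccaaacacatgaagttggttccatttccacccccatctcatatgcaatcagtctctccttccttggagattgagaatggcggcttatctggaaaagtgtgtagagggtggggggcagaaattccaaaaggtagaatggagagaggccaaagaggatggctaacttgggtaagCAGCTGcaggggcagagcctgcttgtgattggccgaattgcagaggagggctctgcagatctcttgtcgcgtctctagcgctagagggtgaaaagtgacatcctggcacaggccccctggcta
Pcsk1: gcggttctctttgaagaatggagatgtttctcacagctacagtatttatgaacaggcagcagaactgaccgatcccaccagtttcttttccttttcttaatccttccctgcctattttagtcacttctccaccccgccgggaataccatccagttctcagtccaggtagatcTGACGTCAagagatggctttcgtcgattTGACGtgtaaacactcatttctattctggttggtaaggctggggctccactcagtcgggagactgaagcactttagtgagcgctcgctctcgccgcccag
Chgb: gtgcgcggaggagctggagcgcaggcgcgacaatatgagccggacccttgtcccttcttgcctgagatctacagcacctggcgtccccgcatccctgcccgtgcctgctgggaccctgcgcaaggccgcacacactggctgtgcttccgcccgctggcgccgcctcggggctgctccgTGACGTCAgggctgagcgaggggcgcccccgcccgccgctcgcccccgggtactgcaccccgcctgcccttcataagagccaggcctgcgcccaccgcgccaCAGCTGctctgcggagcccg
Scg2: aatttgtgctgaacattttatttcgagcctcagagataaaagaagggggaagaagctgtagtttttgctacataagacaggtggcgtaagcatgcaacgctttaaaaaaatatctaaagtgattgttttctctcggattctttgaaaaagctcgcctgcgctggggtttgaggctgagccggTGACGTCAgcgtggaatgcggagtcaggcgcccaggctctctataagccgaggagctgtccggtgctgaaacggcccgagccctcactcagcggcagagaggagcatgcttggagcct

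The full element TGACGTCA was found, on either strand, in 3 of the 9 members with a promoter entry: 78 bases before the start of Pcsk1, 72 before that of Chgb and 68 before that of Scg2. Among all 32851 promoters of the table, 1.79% held it. The shorter core TGACG, which 20.81% of the promoters held, also occurred in Calca (65 bases before the start), Chga (44), Scg3, Scg5 and Pcsk2, and not in the window of Resp18. The E-box CAGCTG was found in Calca, Resp18, Chga (2 copies), Chgb and Pcsk2, against 16.3% of the promoters. The members that share TGACGTCA thus include a gene that rose in brain and 2 that were not called. Cpe, which has no entry, lies at chr8:64592542-64693054.

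Levels are given as CPM of the tumour-cell UMIs of a library, scaled by TMM factors; because the assay counts 1 tag per molecule at the 3′ end, these levels were not divided by transcript length. Averaged over the 8 libraries, Chga was highest at 498 CPM, above 98% of the genes tested, followed by Cpe at 278 CPM. Scg5 stood at 108 CPM, Calca at 88.3, Scg3 at 72.6, Chgb at 53.2, Pcsk2 at 33.5, Pcsk1 at 28.5 and Resp18 at 21.3 CPM. Scg2 was lowest at 3.34 CPM, with 68 to 242 UMIs per library. In each library Chga lay above Cpe, and Cpe above the other 8 members, while the ranges over libraries of Scg5 (88.9 to 139), Calca (55.8 to 144), Scg3 (61.0 to 81.0) and Chgb (34.8 to 69.9) overlapped with their neighbours in this order.

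**Figure D1:**
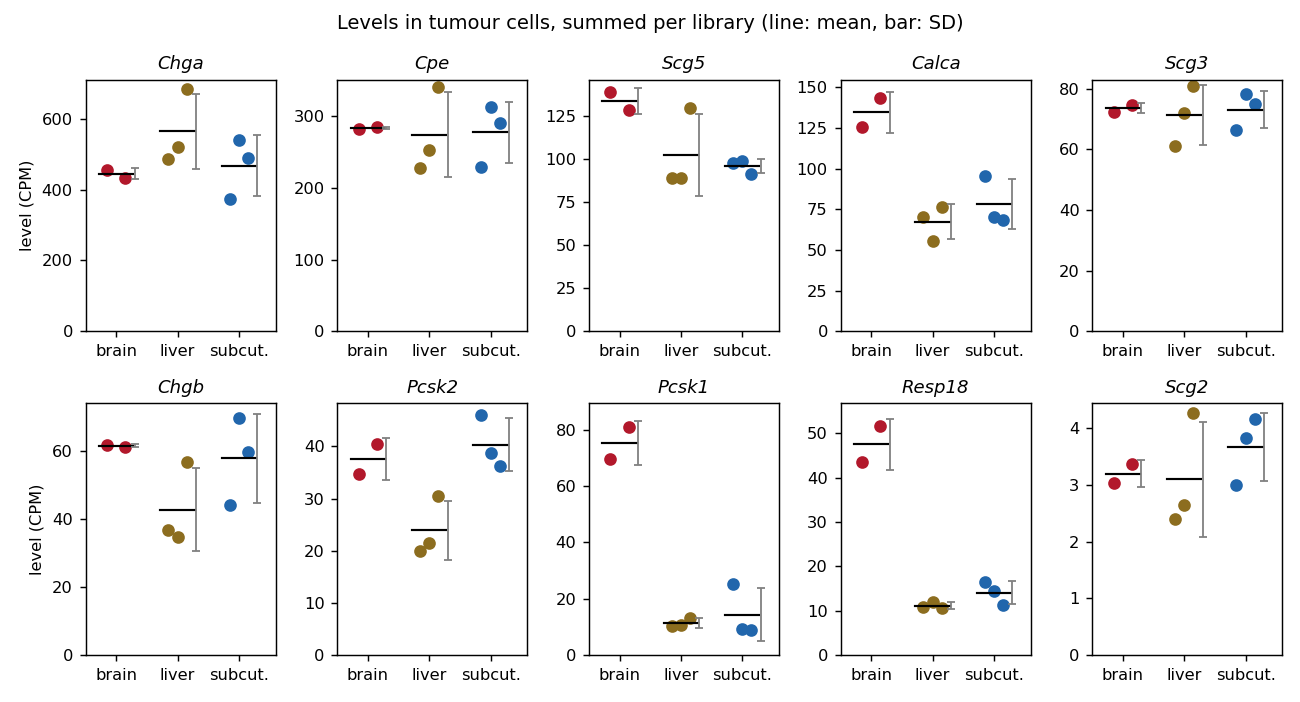
Level of each of the 10 genes in tumour cells (y axis, CPM from 0), by site (x axis, subcut. for subcutis), with 1 point per library, a line at the mean and a bar for the SD (n = 2 brain, 3 liver and 3 subcutis). Pcsk1 and Resp18 lay higher in both brain libraries than in the 6 others, and Chga, Cpe, Scg3 and Scg2 lay in ranges that overlapped between at least 2 of the sites.

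Calca, Resp18 and Pcsk1 rose in brain tumour cells against both other sites, and Pcsk2 rose in brain against liver. Thus 4 of the 10 genes were called higher in brain than in liver, where 21.8% of all genes tested were called and 13.2% were called higher. Against subcutis 3 of 10 were called, all higher in brain, where 15.1% of all genes were called and 8.94% were called higher. The 3 that rose against both sites compare with 7.35% of all genes. The libraries of brain and liver did not overlap for 6 of the 10 (53.7% of all genes), those of brain and subcutis for 4 (47.1%) and those of liver and subcutis for 1, Pcsk2 (24.9%). The median log2 fold change of the 10 genes was 0.46 against liver and 0.06 against subcutis, with medians of 0.00 over all genes tested. In these sums a larger number of cells with a transcript and more RNA per cell cannot be told apart.

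Calca encodes calcitonin and, by alternative splicing, calcitonin gene-related peptide (CGRP); its 6 coding transcripts have 6 different 3′ ends, and the deposited gene counts do not separate them. It was at 126 and 144 CPM in the brain libraries, 70.6, 55.8 and 76.2 in liver, and 95.7, 70.3 and 68.6 in subcutis. Both brain libraries lay above all 6 others, and liver and subcutis overlapped. The level was 2.00-fold higher in brain than in liver (log2 1.00, SE 0.17, adjusted p = 0.00548 by edgeR's quasi-likelihood test with Benjamini-Hochberg adjustment, as for every adjusted p in this text). Against subcutis it was 1.72-fold higher (log2 0.79, SE 0.17, adjusted p = 0.0199), a call that was lost without brain replicate 1 (adjusted p = 0.0729), brain replicate 2 (0.118), subcutis replicate 2 (0.0613) or subcutis replicate 3 (0.0671), in all kept cells (0.0598) and with only the 2 sites fitted (0.0539).

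Resp18, a regulated endocrine-specific protein of the secretory pathway, was at 43.5 and 51.6 CPM in brain, 10.8, 11.9 and 10.6 in liver, and 16.4, 14.5 and 11.3 in subcutis. The groups of brain and of the other libraries did not overlap, a pattern that 18.2% of all genes tested showed with both brain libraries on the high side. Resp18 was 4.28-fold higher in brain than in liver (log2 2.10, SE 0.16, adjusted p = 0.000343) and 3.38-fold higher than in subcutis (log2 1.76, SE 0.16, adjusted p = 0.000607). An antisense gene, Gm28902, overlaps Resp18, and whether the counting used the strand is not given in the sources used here.

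Among the granins, none was called between any 2 sites. Chga was at 456 and 433 CPM in brain, 486, 521 and 685 in liver, and 372, 540 and 489 in subcutis. Its highest value came from liver replicate 3 and its lowest from subcutis replicate 1, and its log2 fold changes were -0.34 against liver (adjusted p = 0.208) and -0.07 against subcutis (adjusted p = 0.826). Chgb, or secretogranin I, was at 62.0 and 61.4 CPM in brain, 36.8, 34.8 and 56.8 in liver, and 44.1, 69.9 and 59.8 in subcutis, with brain above all 3 liver libraries (log2 0.53, SE 0.23, adjusted p = 0.137). Without liver replicate 3 that difference passed the threshold, at log2 0.79 (adjusted p = 0.0323). Scg2, the precursor of secretoneurin, ranged from 2.40 to 4.26 CPM and Scg3, a granin that binds Chga, from 61.0 to 81.0 CPM, with no more than 0.24 between any 2 sites on the log2 scale.

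The processing genes differed among themselves. Pcsk1, the convertase that makes the early cuts in many prohormones, was at 69.8 and 80.9 CPM in brain, 10.2, 10.7 and 13.3 in liver, and 25.1, 9.07 and 8.90 in subcutis. Both brain libraries stood far above the rest, and subcutis replicate 1 stood above the other 5. Pcsk1 was 6.62-fold higher in brain than in liver (log2 2.73, SE 0.43, adjusted p = 0.00537) and 5.28-fold higher than in subcutis (log2 2.40, SE 0.42, adjusted p = 0.0124). Without subcutis replicate 1 the latter log2 fold change was 3.07 (adjusted p = 1.87e-06).

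Pcsk2, the convertase that acts later in the same granules, showed a different order, with 34.7 and 40.5 CPM in brain, 19.9, 21.6 and 30.4 in liver, and 46.0, 38.7 and 36.3 in subcutis. Liver was the low site, and brain and subcutis overlapped. The difference of brain from liver passed the threshold (log2 0.65, SE 0.19, adjusted p = 0.0355) and was lost when any of brain replicate 1, brain replicate 2, liver replicate 1 or liver replicate 2 was left out (adjusted p = 0.0911 to 0.205). It was also lost with the tumour rule at 0.5% (adjusted p = 0.0756), in all kept cells (0.105), in G2/M-low cells alone (0.0790) and with the replicate number as a term (0.0575). Liver against subcutis missed it narrowly (log2 -0.75, SE 0.17, adjusted p = 0.0509), although no liver library reached the lowest subcutis library. Antisense genes Pcsk2os1 and Pcsk2os2 overlap Pcsk2.

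Scg5, the chaperone that Pcsk2 needs to mature, was at 139 and 129 CPM in brain, 88.9, 88.9 and 130 in liver, and 98.1, 98.9 and 91.4 in subcutis. Liver replicate 3 reached the brain level, and the differences did not pass the threshold against liver (log2 0.38, adjusted p = 0.118) or subcutis (log2 0.48, adjusted p = 0.0752). Without liver replicate 3 both did (adjusted p = 0.00954 and 0.0168). Over 20 other settings of the fit, Scg5 was called in 1 against liver and in 6 against subcutis. The 5 besides liver replicate 3 were DESeq2 (adjusted p = 0.0347), only the 2 sites fitted (0.0424), only G2/M-low cells (0.0440), without cells holding host marker UMIs (0.0476) and without subcutis replicate 1 (0.0476). Cpe was at 283 and 285 CPM in brain, 228, 253 and 341 in liver, and 230, 313 and 291 in subcutis, with log2 fold changes of 0.05 and 0.03 and groups that overlapped.

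**Figure D2:**
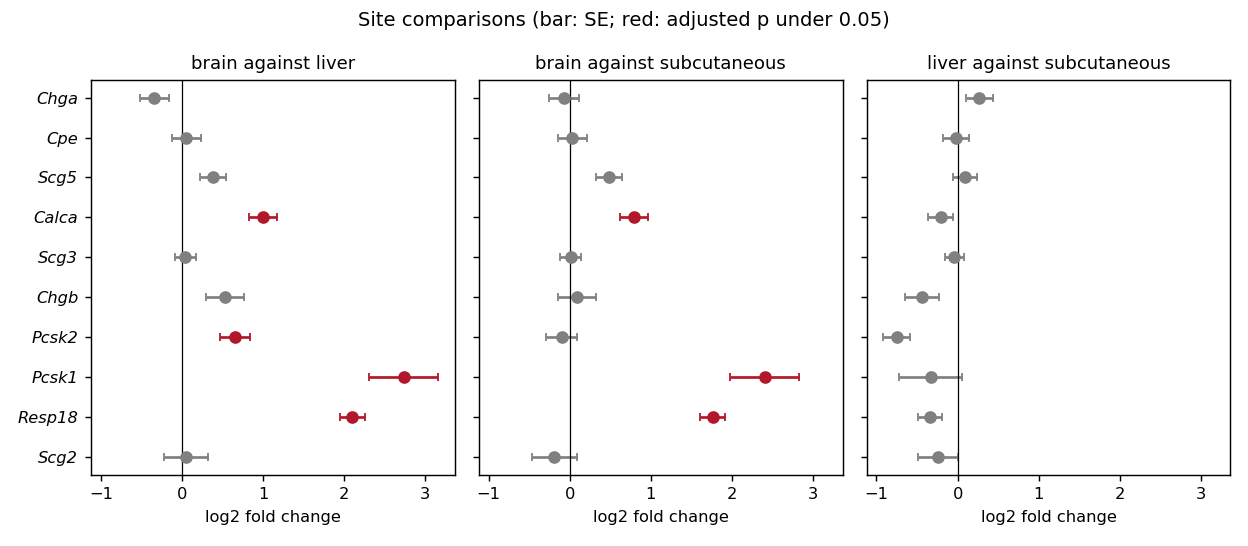
Log2 fold change (x axis) of each gene (y axis) in the 3 site comparisons, with the SE as a bar, from a fit over 8 libraries; red marks an adjusted p under 0.05. Pcsk1 and Resp18 lie at 1.76 to 2.73 in both brain panels, and no gene is red in the liver panel.

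Between liver and subcutis, 0 of the 10 genes passed edgeR's threshold, where 2.83% of all genes tested were called. At an unadjusted p under 0.05 Resp18 and Pcsk2 would have passed, both lower in liver, and DESeq2 called Pcsk2 (log2 -0.74, adjusted p = 0.00184). Beside the calls in brain stand the host markers given above. Without the tumour cells that held 2 or more UMIs of macrophage, microglia, astrocyte or oligodendrocyte markers, Resp18, Pcsk1, Calca and Pcsk2 were called against liver, and Resp18, Pcsk1, Calca and also Scg5 (log2 0.56, adjusted p = 0.0476) against subcutis. The log2 fold change of Resp18 against liver was then 2.69 in place of 2.10. In liver tumour cells the oligodendrocyte markers summed to 71.9 to 74.0 CPM and the microglia markers to 24.1 to 36.5 CPM. The filter could thus also leave out tumour cells without host RNA, more so at greater depth. How many cells it left out is not given here. Cells with neuron markers were not left out, and the part of those markers was not tested.

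The share of tumour cells with a UMI was compared after thinning each cell to 3000 UMIs, which left out 970 shallower cells. Pcsk1 was then seen in 17.1 and 20.9% of brain tumour cells, in 2.87 to 3.63% of liver cells and in 6.96, 2.52 and 2.65% of subcutis cells. Resp18 was seen in 12.2 and 13.1%, in 2.86 to 3.23% and in 3.41 to 4.87%, and Calca in 27.4 and 31.3%, in 10.5 to 15.5% and in 17.7 to 22.0%. Brain was the high site for all 3, as it was by CPM. Without thinning Pcsk1 was seen in 30.3 and 39.8% of brain cells, at median depths of 7971 and 8409 UMIs, and in 6.49 to 17.8% of the cells of the other 6 libraries, at 9250 to 10542 UMIs.

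Free RNA was gauged in cells with at least 5 macrophage-marker UMIs and with eGFP and Mycl together under 0.05% of UMIs. That limit leaves out macrophage-marker cells with more tumour RNA, so the shares may be too low. The cells that remain were taken to lack these genes, which was not tested. After thinning, Pcsk1 was seen in 0.396% of 505 such cells in brain replicate 1 (median depth 4563 UMIs) and 0.625% of 160 in brain replicate 2 (4330 UMIs), and in 0 of 84 in subcutis replicate 1, which by the exact binomial limit allows up to 4.30%. Chga, the most abundant member, was seen in 6.53, 5 and 7.14% of these cells and in 58.6 to 78.7% of tumour cells. Cpe was seen in 8.91% of them in brain replicate 1 and 3.75% in brain replicate 2. Without TMM factors its level there was 41.12 and 23.35 CPM, against 19.89 and 18.68 for Chga, although Cpe lay below Chga in tumour cells. Whether these cells make Cpe themselves was not tested. Scg2 was seen in 0.688 to 1.52% of tumour cells and in none of the macrophage-marker cells (0 of 505, an upper limit of 0.728%), so that its share was close to what this depth can separate from background. These limits cover counting error only.

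Within each library the genes differed in how unevenly their transcripts were spread over cells. The ratio of variance to mean of the thinned counts of Calca was 1.26 to 5.03, above that of 94.5 to 99.9% of genes of like level, and it was highest in liver replicates 2 and 3. Resp18 (96.0 to 99.5%) and Pcsk1 (95.6 to 99.3%) also stood above most genes of like level. Scg3 stood above only 3.55 to 69.5%, with its transcripts spread nearly as chance sampling would spread them (ratios of 0.983 to 1.05). These are descriptions, since cells of a library are not replicates.

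Across the cells of a library, the 3 genes that rose in brain were the pairs with the highest correlations among the 45 pairs: Calca with Pcsk1 (mean r = 0.197 over 8 libraries), Calca with Resp18 (0.138) and Resp18 with Pcsk1 (0.135). Chgb with Pcsk2 followed at 0.092. Such values are weak, share the library and the depth of each cell, and are given as a description. Of 3964 other genes with a UMI in at least 10% of the thinned cells, the most alike to all 3 was Ybx1, a gene of a DNA- and RNA-binding protein (mean r = 0.266 with Calca, 0.218 with Resp18 and 0.233 with Pcsk1), followed by Ndufs5, a gene of respiratory complex I (0.227, 0.193 and 0.215). Ctps, a gene of CTP synthesis (0.208 with Calca), and Rragc, a gene of amino acid sensing (0.183 with Resp18), were also among them. All 4 lie on chromosome 4, Ybx1 at 119277981 to 119294604 and Rragc at 123917446 to 123936997, on either side of Mycl at 122995652 to 123002485. For the other 7 members no gene reached a mean r of 0.15.

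The tumour cells were grouped into 12 clusters without using the 10 genes or the genes of the pathway lists, and clusters are called by number and leading genes. As a description with no test, cluster 2 (3186 cells, led by Tm4sf1, Bst2, Des, En1 and Clca3b) had the highest Calca, Pcsk1 and Resp18, with means over 8 libraries of 745, 178 and 128 CPM, here of the UMIs of the cells in question without TMM factors. The next highest cluster present in 3 or more libraries had 81.7 for Calca and 36.6 for Pcsk1 (both cluster 6, led by Tfap2a) and 19.2 for Resp18 (cluster 1, led by Igfbpl1, Tubb2b and Isl1). Smap2 and Rlf, 2 genes of chromosome 4 that lead cluster 2, lie between Ctps and Mycl. In the same cells Ybx1 was at 13250 to 23140 CPM against 2829 to 3436 outside the cluster, and Mycl, which the tumour rule used, was at 2285 to 4230 against 4205 to 7904.

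**Figure D3:**
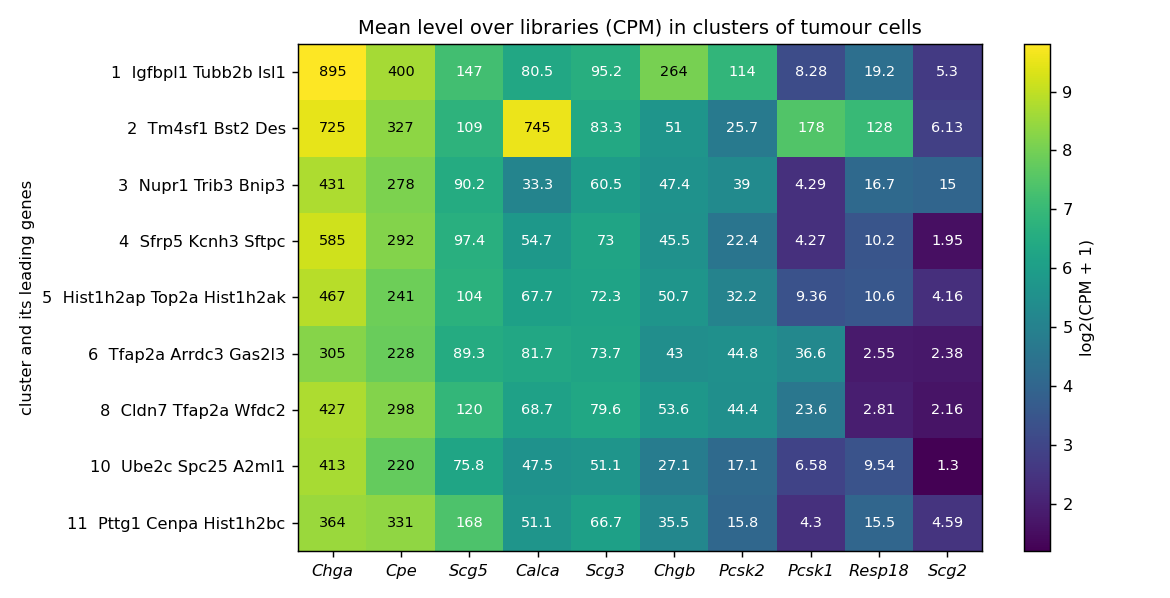
Mean level over libraries (cell number, CPM; colour, log2 of CPM + 1) of each gene (x axis) in each cluster of tumour cells with at least 50 cells in 3 or more libraries (y axis, cluster number and 3 leading genes). Calca, Pcsk1 and Resp18 peak in cluster 2 (745, 178 and 128), and Chga, Chgb, Pcsk2 and Cpe in cluster 1 (895, 264, 114 and 400).

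Other members had other peaks. Cluster 1, whose leading genes also include the neuronal genes Htr3a and Elavl4 and the glial genes Apoe and Mbp, had the highest Chga (895 CPM), Chgb (264), Pcsk2 (114) and Cpe (400). Within it Chgb was at 94.9 and 94.1 CPM in the brain libraries and at 186 to 440 in the 4 other libraries with at least 50 cells there. Clusters 6 and 8, both led by Tfap2a among others, had the lowest Resp18 (2.55 and 2.81 CPM) beside 36.6 and 23.6 for Pcsk1, so that Pcsk1 and Resp18 parted there. Scg2 was highest in cluster 3 (15.02 CPM), which is led by Nupr1, Trib3 and Bnip3, genes of the stress and hypoxia responses; it reached 46.3 in brain replicate 2, from 50 cells, and 4.58 to 15.3 in the 6 other libraries. Scg5 was highest in cluster 11 (168 CPM), led by the mitotic genes Pttg1 and Cenpa, and Scg3 ranged from 51.1 to 95.2.

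Most of the Pcsk1 and Resp18 in brain tumour cells came from cluster 2. Its share of Pcsk1 follows in part from how it was chosen, as the cluster with the highest mean Pcsk1. In the brain libraries it held 30.4 and 37.7% of all tumour-cell UMIs, but 84.7 and 82.9% of those of Pcsk1, 79.6 and 89.8% of those of Resp18 and 62.6 and 70.9% of those of Calca. In liver it held 0.862 to 1.78% of all UMIs and 18.1 to 26.7% of those of Pcsk1, 14.0 to 18.6% of those of Resp18 and 22.1 to 29.8% of those of Calca. In subcutis replicate 1, the library with the highest Pcsk1 outside brain, it held 9.30% of all UMIs and 45.0% of those of Pcsk1. By number, the cluster made up 30.1 and 39.1% of the tumour cells in brain, 1.2 to 2.3% in liver, and 10.3, 2.1 and 2.1% in subcutis. These sizes were not tested between sites, because genes that lead the cluster differed between them.

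Inside cluster 2 the site order of Calca turned around. Its level there was 268 and 277 CPM in brain, 1108, 1142 and 1906 in liver, and 359, 427 and 473 in subcutis, without overlap between any of the sites. A median cell held 2 Calca UMIs in both brain libraries, 9 to 10 in liver and 2 to 3 in subcutis, at median depths of 7073 to 8188 UMIs. The liver values rest on 94, 61 and 55 cells, against 727 and 1588 in brain and 428, 134 and 99 in subcutis. In a fit of these cells alone, added after the clusters were seen, Calca was 5.14-fold lower in brain than in liver (log2 -2.36, SE 0.20, adjusted p = 1.40e-06) and 3.45-fold higher in liver than in subcutis (log2 1.79, SE 0.17, adjusted p = 1.27e-05). Both calls held when each library in turn was left out (log2 -2.50 to -2.11 and 1.54 to 1.92).

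Brain against subcutis was not called for Calca in these cells (log2 -0.57, SE 0.19, adjusted p = 0.114), but was without liver replicate 3 (adjusted p = 0.0204) or subcutis replicate 1 (adjusted p = 0.0148). Pcsk1 and Resp18 did not follow Calca inside the cluster. Pcsk1 was at 201 and 182 CPM in brain, 143, 151 and 273 in liver, and 125, 186 and 164 in subcutis, and Resp18 was at 118 and 126, at 92.1, 159 and 168, and at 113, 130 and 120. These groups overlapped, with log2 fold changes of brain against liver of 0.04 for Pcsk1 (SE 0.21, adjusted p = 0.953) and -0.19 for Resp18 (SE 0.19, adjusted p = 0.621). In the comparison of brain with liver 2 of the 9 members tested in these cells were called, where 7.25% of genes were. The other was Chga (log2 -0.82, adjusted p = 0.0157), a call lost without brain replicate 1 (adjusted p = 0.0773) or brain replicate 2 (adjusted p = 0.147).

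Scg5 was the 1 member of 9 called in cluster 2 for brain against subcutis, where 3.0% of genes were (log2 0.74, adjusted p = 0.0249). That call was lost without brain replicate 1 (adjusted p = 0.316), subcutis replicate 2 (0.0789) or subcutis replicate 3 (0.127). For liver against subcutis Calca alone of the 9 was called, where 1.79% of genes were.

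**Figure D4:**
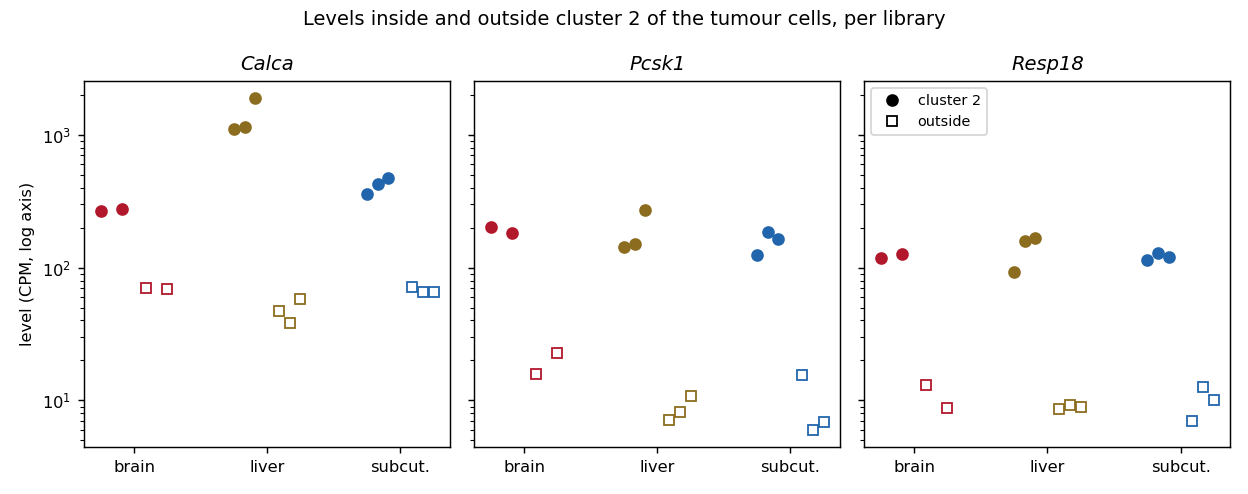
Level of Calca, Pcsk1 and Resp18 (y axis, CPM on a log axis) in each library by site (x axis), in the tumour cells of cluster 2 (filled circles) and in all other tumour cells (open squares). Inside the cluster Calca is highest in liver (1108 to 1906) and lowest in brain (268 and 277), while Pcsk1 and Resp18 overlap between sites.

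Outside cluster 2, Calca was at 70.0 and 69.1 CPM in brain, 47.3, 38.1 and 58.5 in liver, and 71.9, 65.0 and 65.2 in subcutis. Pcsk1 was at 15.8 and 22.7, at 7.11, 8.20 and 10.7, and at 15.7, 5.96 and 6.90, and Resp18 was at 13.2 and 8.71, at 8.66, 9.28 and 8.97, and at 7.03, 12.6 and 10.1. Brain stayed above liver for Calca and Pcsk1, and Resp18 overlapped. None of the 3 was called against liver in these cells, and none of the 10 genes against subcutis (0 of 10, where 5.64% of genes were called). Against liver the log2 fold changes were 0.46 for Calca (adjusted p = 0.0887), 1.08 for Pcsk1 (adjusted p = 0.118) and 0.20 for Resp18 (adjusted p = 0.667). Pcsk2 was the 1 member of 10 called there, where 8.36% of genes were (log2 0.95, adjusted p = 0.0211), and it was also called lower in liver than in subcutis (log2 -0.79, adjusted p = 0.0453), where 3.05% of genes were.

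The difference between the site effects inside and outside cluster 2 was tested in a model with a term for each library. For brain against liver it was -2.74 on the log2 scale for Calca (SE 0.15, adjusted p = 4.13e-10), -1.01 for Pcsk2 (SE 0.27, adjusted p = 0.0157), -0.75 for Chgb (SE 0.18, adjusted p = 0.00929) and -0.36 for Chga (SE 0.11, adjusted p = 0.0455), where 6.04% of genes were called. For liver against subcutis it was 2.13 for Calca (SE 0.14, adjusted p = 1.66e-08) and 0.86 for Chgb (SE 0.19, adjusted p = 0.0179), where 0.991% were called, and for brain against subcutis -0.60 for Calca (SE 0.15, adjusted p = 0.0494), where 1.32% were. Pcsk1 and Resp18 were called in none of the 3 (adjusted p = 0.519 to 0.972).

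A split by a single gene in place of the cluster gave the same order for Calca. An En1 UMI, of a homeobox gene that leads cluster 2, was present in 59.04% of the cells of the cluster and 0.46% of the others. Most cells with an En1 UMI were thus cells of cluster 2, so this fit largely uses the same cells again. Among the 2027 cells with an En1 UMI, Calca was lower in brain than in liver (log2 -2.25, SE 0.21, adjusted p = 1.75e-06) and higher in liver than in subcutis (log2 1.80, SE 0.18, adjusted p = 8.79e-06). Scg5 was called there for brain against subcutis (log2 0.80, adjusted p = 0.0327). In these cells 3.0% of genes were called for brain against liver, 1.47% for brain against subcutis and 0.524% for liver against subcutis. Leaving these cells out kept Resp18 (log2 1.43), Pcsk1 (log2 2.16) and Calca (log2 0.84) called against liver, with adjusted p of 0.00116, 0.0132 and 0.0105, unlike leaving out the whole cluster. Against subcutis Resp18 (log2 1.27, adjusted p = 0.00174) and Pcsk1 (log2 2.04, adjusted p = 0.0219) stayed called, and Calca did not (log2 0.52, adjusted p = 0.0730). Without them 13.5%, 9.61% and 3.05% of genes were called in the 3 comparisons. The test of the difference, run by En1 UMI, called 3.52%, 1.68% and 0.709% of genes. Unlike the split by cluster, it called Resp18 for brain against liver (log2 -1.37, adjusted p = 1.9e-07) and brain against subcutis (log2 -1.14, adjusted p = 1.18e-06). The cells without an En1 UMI still included cells of cluster 2. That cluster was 30.1 and 39.1% of tumour cells in brain, 1.2 to 2.3% in liver and 10.3, 2.1 and 2.1% in subcutis. For Resp18 the make-up of the classes and a site effect therefore cannot be told apart here. Calca was called in all 3 (-3.02, -0.95 and 2.08). Pcsk2 (adjusted p = 0.368) and Chga (0.359) were not called for brain against liver.

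The genes were also compared between cells with high and low counts of 20 mitotic (G2/M) genes, none of which was a member. After thinning, 11887 tumour cells had at least 4 UMIs over that list and 17399 had 0 or 1, and the classes of a library were paired in the fit. Chga fell in G2/M-high cells by 25.1% (422 ± 85.2 against 559 ± 87.0 CPM, SD, n = 8 libraries; log2 -0.42, SE 0.03, adjusted p = 5.63e-08), Chgb by 18.7% (log2 -0.30, adjusted p = 1.61e-07) and Cpe by 15.3% (log2 -0.24, adjusted p = 2.05e-10), each in 8 of 8 libraries. Resp18 fell by 12.9% (log2 -0.20, adjusted p = 0.00499), in 7 of 8. Pcsk2 also passed the threshold (log2 -0.13, adjusted p = 0.0129), with 4 of 8 libraries lower, and lost it without subcutis replicate 2 (adjusted p = 0.0689) or subcutis replicate 3 (adjusted p = 0.0668). In this comparison 62.2% of all genes tested were called and 33.6% were called lower, beside 5 of the 10 genes called, all lower.

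Calca (log2 -0.03), Pcsk1 (-0.01), Scg5 (0.02), Scg2 (-0.01) and Scg3 (-0.05) were not called. For Calca the 3 subcutis libraries were higher in G2/M-high cells and the 3 liver libraries lower. In cells thinned to equal depth in the sums too, Pcsk1 was called lower (log2 -0.25, adjusted p = 0.00743). The classes differed in depth before thinning, with medians of 10122 to 11904 UMIs in G2/M-high cells and 7435 to 10279 in G2/M-low cells.

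**Figure D5:**
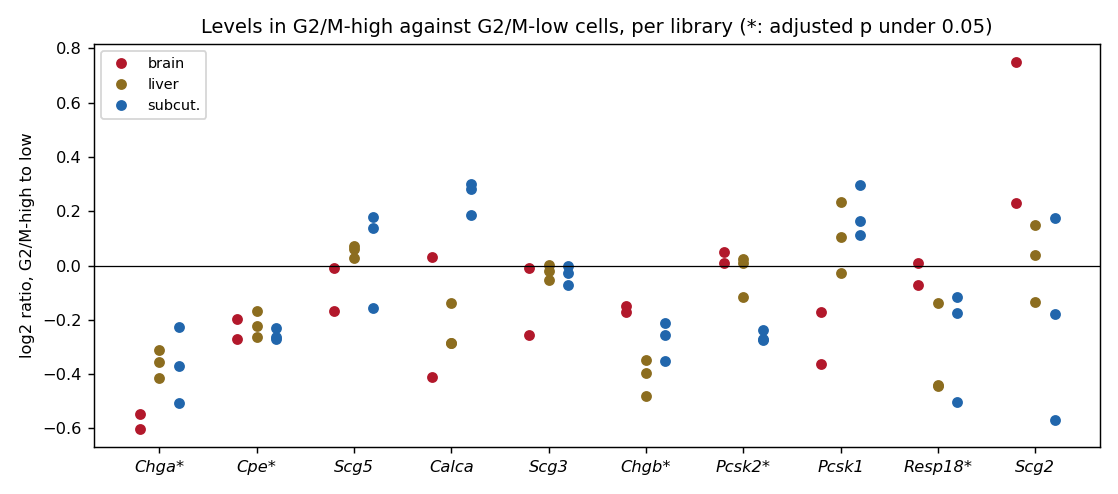
Log2 ratio of the level in G2/M-high to that in G2/M-low cells (y axis) for each gene (x axis), with 1 point per library coloured by site; an asterisk marks an adjusted p under 0.05. Chga, Cpe and Chgb lie below 0 in all 8 libraries, and the Calca points of subcutis lie above 0 while those of liver lie below.

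The genes around these pathways were read out of the same site fit. Of 44 other peptide precursors, 27 were tested, and 7 were called higher and 1 lower in brain than in liver, with a median log2 fold change of 0.26 against 0.00 over all genes. Against subcutis 5 were higher and 2 lower (median 0.02). The called precursors other than Edn3 averaged under 5 CPM and are named here after their values were seen. Pthlh was lower in brain than at both sites and Adm lower than in subcutis. Npy, Sct, Edn1 and Sst were higher in brain than at both, and Avp and Cck higher than in liver. The brain libraries held more host marker UMIs, and how far host RNA added to these low counts was not tested. Edn3, the precursor of the peptide endothelin-3 and also a leading gene of cluster 2, was the only called precursor with a mean of at least 5 CPM, at 29.4 and 30.5 CPM in brain, 2.55, 1.89 and 2.61 in liver, and 4.08, 2.23 and 1.63 in subcutis. It was higher in brain than in liver (log2 3.67, SE 0.32, adjusted p = 0.000519) and subcutis (log2 3.51, SE 0.32, adjusted p = 0.000623).

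Of 12 other processing genes tested, 4 were called higher in brain than in liver and none lower (0), with a median of 0.39: Pcsk1n, Pam and, both averaging under 5 CPM and named after their values were seen, Furin and Pcsk5. Pcsk1n, which encodes proSAAS, an inhibitor of Pcsk1, was at 104 and 103 CPM in brain, 47.7, 44.5 and 52.2 in liver, and 36.5, 41.8 and 42.6 in subcutis. Its groups did not overlap between brain and the rest, and it was called against liver (log2 1.11, SE 0.11, adjusted p = 0.000686) and subcutis (log2 1.36, SE 0.11, adjusted p = 0.000318). Pam, the enzyme that amidates the ends of peptides such as CGRP, was also higher in brain than in liver (log2 0.46, adjusted p = 0.03). Qpct, which closes the N-terminus of some peptides, was lower in brain than in subcutis (log2 -0.96, adjusted p = 0.0304) and in liver than in subcutis (log2 -1.02, adjusted p = 0.0404).

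Among 42 genes of granule formation and release, 7 were called higher and 6 lower in brain than in liver, with a median of 0.01. Against subcutis 5 were higher and 3 lower (median -0.02). Ptprn, a membrane protein of dense-core granules, was higher in brain (16.2 ± 0.949 CPM, n = 2, against 7.13 ± 0.659 in liver and 8.22 ± 0.144 in subcutis, SD, n = 3 each; log2 1.18 and 0.98, adjusted p = 0.000864 and 0.00251), as were Rab27a, a GTPase of granule docking (log2 0.70 and 0.60), and against liver Unc13a, a priming factor (log2 0.75). Syt5, a calcium sensor (log2 -0.92), Cyb561, the granule cytochrome (log2 -0.68), and Cadps, a granule priming factor (log2 -0.66), were lower in brain than in liver. Cyb561 was also lower than in subcutis (log2 -0.42, adjusted p = 0.0319), as were Hid1 (log2 -0.53, adjusted p = 0.0459) and Ccdc186 (log2 -0.43, adjusted p = 0.0254), both of granule formation. Rph3a and Stx1a, called higher in brain than in subcutis, averaged under 5 CPM and are named after their values were seen. Of 14 transcription factors listed as regulators of neuroendocrine genes, 3 were called between brain and liver, a share near the 21.8% of all genes tested. Isl1 (log2 0.88), Foxa2 (log2 0.68) and Prox1 (log2 0.42) were higher in brain. None was called between brain and subcutis (0 of 14). Foxa2 was also lower in liver than in subcutis (log2 -0.61, adjusted p = 0.0447), where 2.83% of all genes were called.

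Of 5 tested genes of the receptors for CGRP and calcitonin and their partners, 3 were called higher in brain than in liver, with a median log2 fold change of 2.20. These were Ramp1, Ramp2 and Ramp3, the receptor activity-modifying proteins, which averaged under 5 CPM and are named after their values were seen. Against subcutis Ramp1 and Ramp3 were called higher. As for the other genes named here at under 5 CPM, how far host RNA in the brain sums added to these counts was not tested. Of the 5 genes only Crcp, a component of CGRP receptor signalling, had a mean of at least 5 CPM and a call, and it was lower in brain than in subcutis (log2 -0.46, adjusted p = 0.0306). The counts of this list and of the lists before it stand beside the 21.8% and 15.1% of all genes called in the 2 brain comparisons.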

How the data were processed

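Single-cell 3′ RNA libraries of 8 allografts were analysed. The authors deposited UMI counts per gene and cell, raw whole numbers in a format of software version 3.0.0 per the file headers; reads had been processed with Cell Ranger and STAR on mm10, per the submitters' processing notes. Versions of these tools and the annotation are not given in the sources used here. The lowest deposited cell held 501 UMIs, so barcodes had been filtered before deposit. Of 22056 gene identifiers, 21952 were placed on GENCODE M21 (GRCm38).

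Kept cells (36797) had 500 or more genes and 10% or less mitochondrial UMIs, and UMIs of tumour cells were summed per library. No doublet caller was run; an alternative left out the 4% of tumour cells with most UMIs in each library. Sums were tested in R 4.3.3 with edgeR 4.0.16 (TMM, filterByExpr, robust quasi-likelihood F tests) with 1 mean for each site and all 8 libraries in the fit, 5 residual degrees of freedom and a biological coefficient of variation of 17.91%. P-values were adjusted over all 13931 genes at a threshold of 0.05; genes not tested held 0.0133% of the UMIs. The SE of a change is its log2 size over the square root of F. The G2/M fit had library as a block, 12188 genes and 7 residual degrees of freedom. Libraries of a site differed beyond counting noise (chi-square of 6.37 to 91.5 per gene), so none was counted as a repeat.

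Tumour cells were clustered in scanpy 1.11.5 (2000 variable genes, 30 principal components, 15 neighbours, Leiden at resolution 0.5) without the 10 genes and the pathway lists. Cells were thinned to 3000 UMIs for shares, variances and correlations. Intervals are exact binomial (Clopper-Pearson, 95%, scipy 1.17.1).

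The 10 genes, the gene lists and the tests were chosen with earlier results of these data known. All 10 genes are named. Of each pathway list, at most 6 genes per comparison are named, those with the largest change among called genes averaging 5 CPM or more. For likeness at most 3 genes per member are named, with a mean r of at least 0.15. Fits inside and outside cluster 2, and by En1, were added after the clusters were seen. Cluster 2 was taken for them as the cluster with the highest mean Pcsk1. Its high Pcsk1, and the lower Pcsk1 outside it, thus follow in part from that choice.

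The fits were tested on simulated counts with 200 changed genes among 13705. For brain against liver 78% of the 2-fold and 100% of the 3-fold changes were recovered, with 4 calls among unchanged genes, and for brain against subcutis 81% and 100%, with 9. With no gene changed between simulated liver and subcutis, 0 calls were made. For the G2/M fit, on 12167 genes, 95.5% of 1.5-fold changes were recovered, with 6 calls among unchanged genes. The simulated counts had the same spread for every gene and no shifts shared by the genes of a library. In the site simulation that spread was below the fitted one, so these rates need not hold for the real counts. Alternatives covered DESeq2 1.42.0, its size factors, gene and cell filters, thinning, the replicate number as a block, only the 2 sites compared, and leaving out each library.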

Additional observations from a re-analysis of the deposited data

Results flagged for a closer look

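The site effects on 4 genes differed between the cells of cluster 2 and all other tumour cells by a test of that difference. On the log2 scale, the effect of brain against liver was lower inside the cluster by -2.74 for Calca, -1.01 for Pcsk2, -0.75 for Chgb and -0.36 for Chga. For brain against subcutis it was lower by -0.60 for Calca, and for liver against subcutis it was higher by 2.13 for Calca and 0.86 for Chgb. The liver cells of cluster 2 are few, at 94, 61 and 55. With cells split by an En1 UMI in place of the cluster, Pcsk2 and Chga were not called for brain against liver and Resp18 was. In that split the cells without an En1 UMI still held cells of cluster 2, a larger part in brain than in liver. A site effect on Resp18 cannot be told apart from that make-up.

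In the comparison of G2/M-high with G2/M-low cells, 4 genes moved one way in all libraries of a site and the opposite way in all libraries of another, differences that were not tested. The mean log2 ratio was lower in liver than in subcutis for Calca (-0.49), lower in brain than in liver for Scg5 (-0.14), lower in brain than in subcutis for Pcsk1 (-0.46) and higher in brain than in subcutis for Pcsk2 (0.29). Some of these rest on small ratios, such as -0.008 for Scg5 in brain replicate 1 and 0.05 and 0.01 for Pcsk2 in brain. With 2 or 3 libraries per site such splits can arise by chance, and their share over all genes is not given here. For Scg3, brain replicate 1 stood apart from the other 7 libraries, with a log2 ratio of -0.25 and a gap to its neighbour of 0.707 of the whole range, above the limit of 0.526 for 8 values. Chance passes that limit in about 1 in 20 groups, and 10 genes were looked at.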

How the results depend on the processing

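Over 20 other settings of the site fit, Resp18 and Pcsk1 were called higher in brain against both sites in all 20, Calca in 20 against liver and 14 against subcutis, and Pcsk2 against liver in 12. None of these turned the direction of a called gene. The 3032 genes called for brain against liver became 652 in cluster 2 cells alone, 1147 without them, 240 in cells with an En1 UMI and 1871 without those. The 4 members called became 2, 1 and 1 in the first 3 of these, all chosen after seeing the data. For brain against subcutis the 2099 genes became 270, 774, 118 and 1328 in the same order, and 728 with only the 2 sites fitted. The 3 members became 1 (Scg5) in cluster 2 cells, 0 without them and 1 (Scg5) in cells with an En1 UMI. For liver against subcutis the 394 genes became 1056 with DESeq2, 82 in all kept cells, 161 in cluster 2 cells and 42 in cells with an En1 UMI. There 1 member was called with DESeq2, with no filter on low counts, thinned, in G2/M-low cells, without host-marker cells and without cluster 2 or En1 cells (Pcsk2 each time), and 1 (Calca) in cluster 2 or En1 cells. In cluster 2 cells Calca turned from called higher to called lower in brain against liver (-2.36, and -2.25 in En1 cells). In liver against subcutis it was called at 1.79 (1.80 in En1 cells), where all tumour cells gave -0.21 without a call. For Calca in brain against subcutis the sign changed without a call (-0.57, and -0.44 in En1 cells). The same held in cluster 2 cells for Resp18 (-0.19) and Pcsk2 (-0.07) in brain against liver. The cause was not tested.

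Leaving out each library in turn gave 1112 to 4557 genes and 3 to 6 members for brain against liver, 383 to 4754 and 2 to 4 for brain against subcutis, 33 to 1024 and 0 to 1 for liver against subcutis, and 7152 to 7507 and 4 to 5 for the G2/M comparison; a lone brain library is then assumed to vary like the other groups. With the replicate block, the label's replicate number as a term, 2482, 1378 and 229 genes were called in the 3 site comparisons, and of the members the 1 changed call was Pcsk2 in brain against liver (log2 0.72, adjusted p = 0.0575). Same-numbered libraries shared only a number: the correlations of their deviations ran from -0.235 to 0.241, and not every library correlated best with its own number. Depth limits Scg2 most, at 68 to 242 UMIs per library.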

Other observations

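Single libraries stood out across the 10 genes together. Liver replicate 3 was the highest liver library for 9 of the 10, all but Resp18. Subcutis replicate 1 was the lowest subcutis library for 5 (Chga, Chgb, Scg2, Scg3 and Cpe) and the highest for 4 (Calca, Resp18, Pcsk1 and Pcsk2). Levels within a library are scaled to 1 total, so the genes do not move independently of it.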
